A study of Mus musculus with 9 samples.

Results

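The constitutive proteasome and its activators are described here, in 9 RNA libraries of MC38, a line of mouse colon carcinoma cells. Members were the genes whose symbol begins with Psma, Psmb, Psmc, Psmd, Psme, Psmf or Psmg and a number, without the immunoproteasome genes Psmb8, Psmb9 and Psmb10. The rule found 47 of the 16509 genes listed. It used symbols alone and no measured value, but was chosen with earlier results of these data known. Of the 47 members, 46 had enough reads to be tested among 11949 genes. The remaining member, Psmb11, a beta subunit of the proteasome of the thymic cortex, had 0 or 1 read in each library. Role classes held 45 members. Psmc3ip, a factor of meiotic recombination, and Psme3ip1, a binding partner of Psme3, carry the letters without being proteasome subunits. They count as members but stand outside the classes.

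There were 3 libraries of control cells (Ctrl), 3 of cells that received Cu-Cys, which the study's text describes as copper chloride with cystine, and 3 of cells that received Cadict. Cadict is a nanoparticle of copper and cystine that also carries glucose oxidase, an enzyme that consumes glucose, and GE11, a peptide that binds the EGF receptor. The vehicle of the Ctrl cells is DMSO per the labels and PBS per the study's text. No dose or time is stated for these libraries in the sources used here, and all cells are of 1 cultured line. The labels do not say whether the libraries of a group came from separate cultures, while the study's methods describe repeated in vitro experiments and biological replicates in general terms. The p-values measure the spread between these libraries.

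The proteasome degrades proteins that carry ubiquitin chains. Its 20S core is a barrel of alpha and beta rings with the cutting sites inside, and the 19S particle caps the barrel. In the 19S base, a ring of ATPases unfolds the substrate, while the lid removes its ubiquitin. Other caps (the Psme activators) open the barrel without needing ubiquitin, and dedicated chaperones (Psmg for the core, Psmd5, Psmd9 and Psmd10 for the base) help to build the particles but leave the finished complex. Cells that lose proteasome activity are known to raise the subunit genes together through the transcription factor NRF1 (Nfe2l1), which binds antioxidant response elements.

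The short core of such an element, TGACNNNGC, was therefore looked for on both strands of the members' promoters, from 250 bases before to 50 bases after the transcript start (RefSeq, GRCm38.p6). Promoter sequences were matched for 40 of the 47 members, and 6 of the 40 (15.0%) held the core. The share was 14.0% among all 27025 genes with a promoter and 17.0% among the 9550 tested genes with one. A gene was counted if any of its promoters held the core. The 6 windows are shown because they are the members' only matches, with the core in capitals and each strand read in the direction of the gene.
Psmb5: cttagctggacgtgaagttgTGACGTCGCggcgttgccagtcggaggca
Psmb6: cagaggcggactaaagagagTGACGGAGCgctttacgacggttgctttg
Psmc6: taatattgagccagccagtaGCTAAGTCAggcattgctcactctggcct
Psmd12: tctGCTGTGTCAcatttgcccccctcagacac
Psmd9: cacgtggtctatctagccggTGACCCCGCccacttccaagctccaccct
Psme4: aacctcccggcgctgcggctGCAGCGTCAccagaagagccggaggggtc

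These windows lie at chr14:54618014-54618062 on the minus strand for Psmb5, and on the plus strand at chr11:70525328-70525376 for Psmb6, chr14:45329577-45329625 for Psmc6, chr11:107479278-107479309 for Psmd12, chr5:123228139-123228187 for Psmd9 and chr11:30771748-30771796 for Psme4. The core was centred 43 bases before the start in Psmb5, 5 in Psmb6, 223 in Psmc6, 243 in Psmd12, 27 in Psmd9 and 3 in Psme4. In Psmc6, Psmd12 and Psme4 the core is on the opposite strand, so its reverse complement is shown. In Cadict against Ctrl the log2 fold changes of these 6 genes ran from 0.05 for Psme4 to 2.27 for Psmd12. Counted by gene in the same way, 15 of the 40 members held the CCAAT box (37.5%, against 41.1% of all genes and 43.8% of tested genes). GAANNTTC, a heat shock element core, was held by 2 (5.0%, against 9.04% and 6.80%). These letters mark possible sites only.

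The 9 libraries had 17905769 to 18293060 counts each, so depth was alike. Levels below are CPM, a count as a share of the library total after TMM scaling, a method that sets the typical gene level between libraries. The 10 most abundant genes took 10.7 to 11.2% of the counts in Cadict libraries and 4.72 to 5.24% in the other 6. TMM factors were 0.640 to 0.665 in Cadict, 1.26 to 1.27 in Ctrl and 1.21 in Cu-Cys. The scaling therefore matters for Cadict. The median log2 fold change of all genes against Ctrl was -0.13 with TMM, -0.01 with DESeq2 size factors and -1.08 with library totals alone, so changes in Cadict are relative to the typical gene. Cadict replicate 2 stood apart, with a chi-square per gene of 14.7 and 23.2 against replicates 1 and 3, which differed from each other by 3.64. The other pairs within a group gave 1.89 to 4.53, where sampling noise alone gives about 1, so no pair was alike within sampling noise. As a check on the label, the epithelial markers Epcam, Vil1 and Krt18 were at most 0.4 CPM in each library and Krt8 at most 1.4 CPM. Krt19 and Cdh1 moved with the groups. Krt19 was at 0.8 to 1.4 CPM in Ctrl, 0.6 to 1.0 in Cu-Cys and 9.99 to 11.4 in Cadict, and Cdh1 at 4.3 to 5.2, 3.0 to 3.3 and 12.6 to 12.9 CPM. The immune and endothelial markers Ptprc, Cd79a, Pecam1 and Cdh5 were at most 1.3 CPM. The fibroblast genes were present and also moved with the groups. Col1a2 was at 557 to 584 CPM in Ctrl, 309.8 to 319.7 in Cu-Cys and 118 to 129 in Cadict, Col1a1 at 17.4 to 20.3, 6.4 to 7.8 and 5.3 to 7.5 CPM, and Pdgfra at 34.9 to 42.1, 20.6 to 24.1 and 5.0 to 7.6 CPM. The part of these epithelial and fibroblast markers in the results below was not tested. In bulk RNA, fewer cells of one kind and less of a transcript in each cell cannot be told apart.

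In Cadict against Ctrl, 40 of the 46 tested members rose, 2 fell and 4 passed in neither direction at an adjusted p of at most 0.05 (edgeR quasi-likelihood test with Benjamini-Hochberg adjustment). The 26S subunits counted here and below are those with symbols in the rule, so Adrm1 and Sem1 are left out. All 31 such subunits of the 26S proteasome (the 20S core with the 19S base and lid) were among the rises. Their median log2 fold change was 1.85, that of all 46 members 1.69 and that of all genes -0.13. Among all genes tested, 40.6% were higher and 47.1% lower by this rule. Lack of overlap between groups is given below only as a description of single genes. Its share among all genes was not counted. By the stricter rule of the study's methods (fold change no smaller than 2, adjusted p no larger than 0.001), 33 members rose, 29 of them 26S subunits, and 0 fell, where 20.7% of all genes were higher and 27.1% lower. The 15 members outside the 26S had 9 rises, 2 falls and a median of 0.71. Without Cadict replicate 2, all 31 subunits were again higher, with a median of 1.79. With library totals, 29 of the 31 subunits were higher, 0 lower and 2 not called, with a median of 0.89, while the members outside the 26S turned to 4 higher and 9 lower, where 18.1% of all genes were higher and 73.1% lower. With limma on log2 TPM, the deposited values per transcript length, 23 of the 31 were higher and 3 lower, against 11.9% and 79.9% of all genes.

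**Figure D1:**
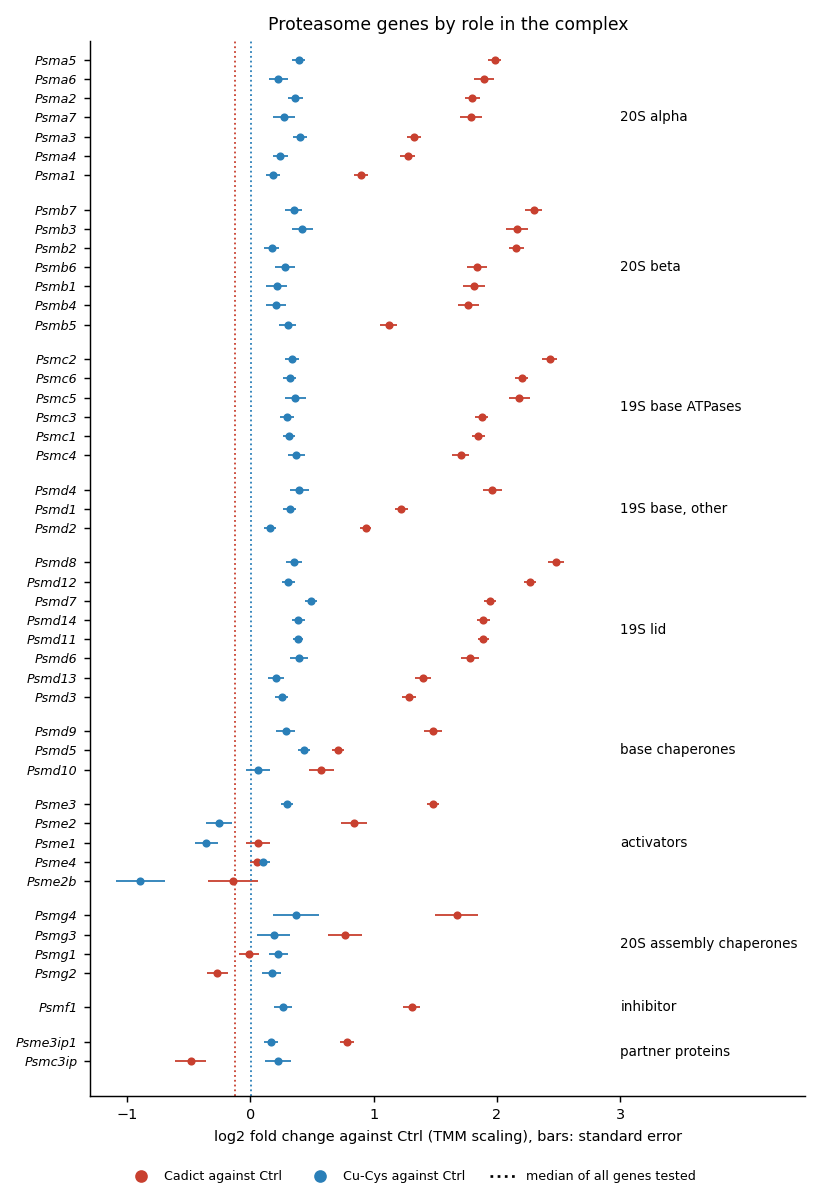
Log2 fold change of the 46 tested members against Ctrl with its standard error, grouped by role (horizontal axis: log2 scale, TMM scaling). Red points are Cadict, blue points Cu-Cys, and dotted lines the median of all genes tested. The 26S subunits lie between 0.90 and 2.48 in Cadict and between 0.16 and 0.49 in Cu-Cys, while the activators and the 20S assembly chaperones spread to both sides of 0.

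The alpha subunits form the outer rings of the core and its gate. All 7 rose in Cadict, with a median log2 fold change of 1.79. Psma5 had the largest change. Its CPM was 114, 112 and 118 in Ctrl replicates 1 to 3, 147, 155 and 148 in Cu-Cys and 445, 479.8 and 431 in Cadict. The 3 groups did not overlap, and the log2 fold change in Cadict was 1.98 ± 0.05 (SE, n = 3 a group, adjusted p = 2.03e-14 by edgeR). Other annotated genes, mostly pseudogenes, share 54.5% of the 50-base stretches of its transcript, so some of its reads could be theirs. Psma1, at the other end, was at 100.5, 102 and 99.6 CPM in Ctrl and at 185, 204 and 174 CPM in Cadict. Its log2 fold change was 0.90 ± 0.06 (adjusted p = 3.73e-10 by edgeR), but -0.05 with library totals. Within a library, where no scaling between libraries enters, the TPM of Psma1 was 0.844 ± 0.034 (SD, n = 3) times that of Psma5 in Ctrl and 0.399 ± 0.011 times in Cadict. The alpha subunits therefore did not move by equal amounts.

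The beta subunits form the inner rings. All 7 tested members rose, with a median of 1.83 and changes of at least 2-fold in each. Of the 3 subunits that cut proteins, Psmb7 (trypsin-like activity) rose most. Its CPM was 86.3, 92.2 and 91.0 in Ctrl and 412, 503 and 408 in Cadict, a 4.91-fold rise with an SE of 0.07 on the log2 scale (adjusted p = 1.09e-13 by edgeR). Psmb6 (caspase-like activity) went from 64.1, 66.6 and 64.7 CPM to 225, 269.8 and 203 CPM, a log2 fold change of 1.83 ± 0.08. Psmb5 (chymotrypsin-like activity, the main target of proteasome inhibitors) had the smallest change of the class. It went from 52.3, 60.5 and 57.8 CPM to 114, 136 and 121 CPM, a log2 fold change of 1.12 ± 0.07 (adjusted p = 3.56e-10 by edgeR), and 0.17 with library totals. For each of the 3 catalytic genes the Cadict libraries lay above all Ctrl libraries. The TPM of Psmb5 was 0.696 ± 0.028 times that of Psmb7 in Ctrl, 0.675 ± 0.026 in Cu-Cys and 0.308 ± 0.011 in Cadict, so the balance of the catalytic transcripts differed in Cadict whatever the scaling. One limit is that 57.1% of the 50-base stretches of the Psmb5 transcript also occur in other annotated genes, among them its pseudogene, against 0% for Psmb7 and 2.67% for Psmb6.

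The 6 ATPases of the 19S base had the highest class median, 2.03, and the narrowest range among the classes of the 26S, from 1.70 to 2.43. Psmc2 was at 107, 104 and 106 CPM in Ctrl, 138, 131 and 131 CPM in Cu-Cys and 553, 614 and 535 CPM in Cadict, a log2 fold change of 2.43 ± 0.06 (adjusted p = 4.69e-15 by edgeR). Psmc4, the lowest of the ring, was at 76.2, 75.8 and 76.6 CPM in Ctrl and 248, 275 and 223 CPM in Cadict, a log2 fold change of 1.70 ± 0.07. Neither gene's Cadict libraries overlapped the other groups. All 6 ATPases were also higher with library totals, with a median of 1.07, and with limma on log2 TPM, with a median of 0.70.

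The base also holds the scaffold proteins Psmd1 and Psmd2 and the ubiquitin receptor Psmd4. These 3 had log2 fold changes of 1.22, 0.93 and 1.96. Psmd2 was at 609, 617 and 616 CPM in Ctrl and at 1185, 1125 and 1207 CPM in Cadict. The groups did not overlap, yet the change, 0.93 ± 0.05 (adjusted p = 3.22e-11 by edgeR), was among the smallest of the 26S and became -0.02 with library totals. Psmd4 went from 116, 125 and 119 CPM to 453, 535 and 414 CPM (adjusted p = 1.36e-12 by edgeR).

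The 8 lid genes among the members all rose at least 2-fold, with a median of 1.89. Psmd8 had the largest change of any member. It was at 186, 202 and 194 CPM in Ctrl, 251, 249 and 243 CPM in Cu-Cys and 1075, 1188 and 978 CPM in Cadict, a log2 fold change of 2.48 ± 0.07 (adjusted p = 1.75e-14 by edgeR). Psmd14, the metalloprotease that cuts the ubiquitin chain from the substrate, went from 98.2, 98.1 and 106 CPM to 369.7, 386 and 363 CPM, a log2 fold change of 1.89 ± 0.05. Its partner subunit Psmd7 went from 260.4, 265 and 264 CPM to 981, 1063 and 989 CPM, a log2 fold change of 1.94 ± 0.05. Psmd3, the lowest of the class, was at 127, 130.3 and 127 CPM in Ctrl and 307, 313 and 316 CPM in Cadict, a log2 fold change of 1.28 ± 0.05 (adjusted p = 3.18e-12 by edgeR). None of these 4 genes overlapped between Ctrl and Cadict, but the share of all genes without overlap was not counted. By adjusted p, a different measure, 40.6% of all genes were higher and 47.1% lower. All 8 lid genes stayed higher with library totals, while Psmd3 was at -0.02 with limma on log2 TPM.

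**Figure D2:**
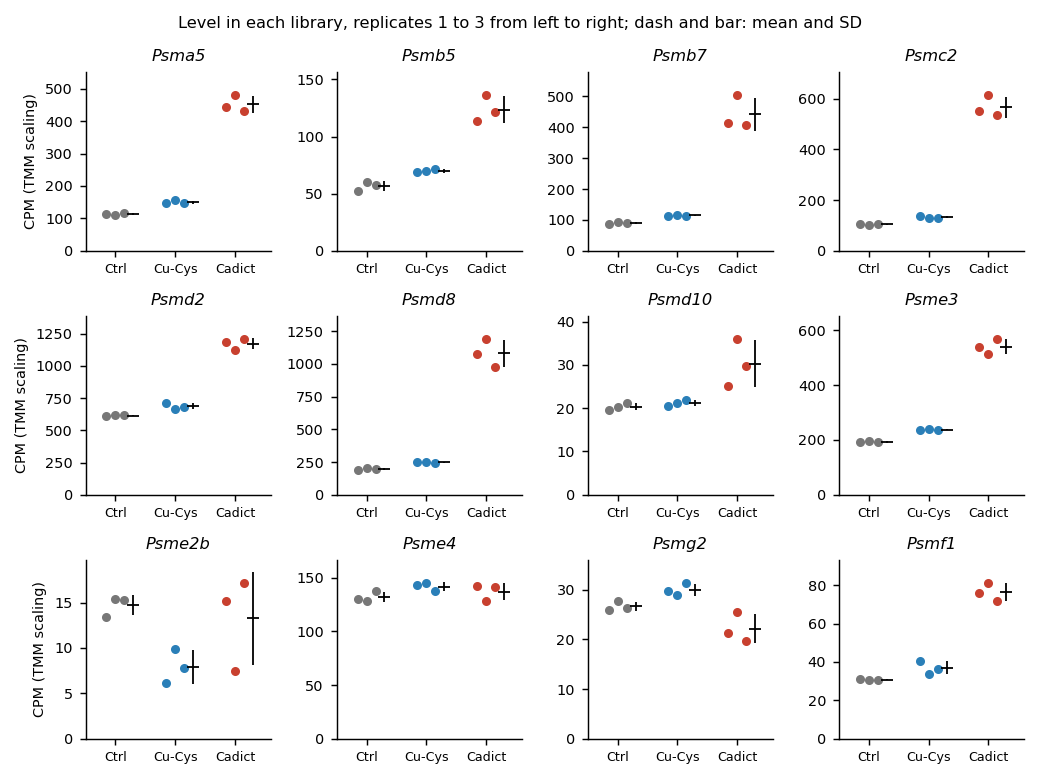
CPM (TMM scaling, linear axes from 0) of 12 members in each of the 9 libraries, with the group mean and SD beside the points. Cadict lies above both other groups for the 26S subunits, Psmd10, Psme3 and Psmf1, and below them for Psmg2, and overlaps Ctrl for Psme4 and Psme2b.

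The base chaperones had a median log2 fold change of 0.71, below the 2.03 of the ATPases that they bind, and all 3 rose. Psmd9 had a log2 fold change of 1.48 ± 0.07, from 21.5, 21.9 and 23.4 CPM in Ctrl to 57.4, 68.9 and 60.4 CPM in Cadict. Psmd5 had one of 0.71 ± 0.05, from 66.0, 68.5 and 67.1 CPM to 110.3, 111 and 108 CPM. Psmd10 had one of 0.57 ± 0.10 (adjusted p = 5.67e-05 by edgeR), from 19.5, 20.3 and 21.1 CPM to 25.2, 35.9 and 29.8 CPM. Each gene's Cadict libraries lay above its Ctrl libraries with TMM, but Psmd5 and Psmd10 were lower with library totals, at -0.25 and -0.38. Per transcript length, the summed TPM of the 3 chaperones was 0.113 ± 0.003 of that of the 6 ATPases in Ctrl, 0.113 ± 0.006 in Cu-Cys and 0.0483 ± 0.0019 in Cadict, with no overlap between Cadict and the other groups.

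The chaperones of the 20S core were divided. Psmg1 and Psmg2, which pair up to seat the alpha ring, had log2 fold changes of -0.01 and -0.27, and Psmg3 and Psmg4, the second pair, 0.77 and 1.67. Psmg2 was at 25.9, 27.7 and 26.4 CPM in Ctrl, 29.7, 29.0 and 31.3 CPM in Cu-Cys and 21.3, 25.4 and 19.7 CPM in Cadict. It fell in Cadict (adjusted p = 0.00763 by edgeR), but with DESeq2 size factors it was no longer called (-0.15, adjusted p = 0.105 by edgeR). Psmg3 was at 11.2, 11.8 and 11.7 CPM in Ctrl and at 16.7, 26.1 and 16.4 CPM in Cadict, where replicate 2 stood well above the others. Its log2 fold change of 0.77 ± 0.14 was -0.19 with library totals. The summed TPM of the 4 genes was 0.0476 ± 0.0004 of that of the 20S subunits in Ctrl, 0.0452 ± 0.0016 in Cu-Cys and 0.0189 ± 0.0016 in Cadict. The summed transcripts of these 4 genes were thus fewer for each core transcript in Cadict. Psmg4 alone was at 29.6 ± 4.6 TPM in Ctrl and 35.9 ± 5.3 in Cadict, and its own ratio to the core was not computed. Pomp, a maturation factor of the core that is not in this sum, had a log2 fold change of 1.82.

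The activators had lower changes than the 26S subunits, apart from Psme3. In Cadict 2 of the 5 rose, 0 fell and 3 passed in neither direction, against 40.6% of all genes higher and 47.1% lower. Their median was 0.06. With library totals 1 was higher and 3 lower, against 18.1% and 73.1% of all genes. Psme3, which forms the nuclear cap PA28 gamma, was at 192, 197 and 191 CPM in Ctrl, 237, 239 and 236 CPM in Cu-Cys and 539, 512 and 568 CPM in Cadict. The groups did not overlap, and the log2 fold change was 1.48 ± 0.05 (adjusted p = 2.03e-13 by edgeR). Psme4, the nuclear cap PA200, was at 129.7, 129 and 138 CPM in Ctrl and 142, 128 and 141 CPM in Cadict. These overlapped, and the log2 fold change was 0.05 ± 0.05 (adjusted p = 0.353 by edgeR). Without Cadict replicate 2 it was 0.10 (adjusted p = 0.0476 by edgeR), and with library totals -0.90. Psme1 and Psme2 encode the interferon-induced cap PA28, and their log2 fold changes were 0.06 and 0.84, but -0.89 and -0.11 with library totals. Psme2b, a copy of Psme2, was at 13.4, 15.4 and 15.3 CPM in Ctrl and 15.2, 7.41 and 17.1 CPM in Cadict, a log2 fold change of -0.14 ± 0.21. Its Cadict replicate 2 was at about the level of the Cu-Cys libraries (6.09, 9.83 and 7.75 CPM), and without it the change was 0.14. Psme2 and Psme2b share 59.3% and 69.3% of their 50-base stretches with other genes, each other among them, so the split of reads between them is uncertain. The TPM of Psme3 was 1.13 ± 0.04 times that of Psme1 in Ctrl, 1.78 ± 0.11 in Cu-Cys and 3.13 ± 0.66 in Cadict.

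Psmf1, PI31, which inhibits the 20S core in the test tube, was at 31.0, 30.9 and 30.6 CPM in Ctrl, 40.6, 33.8 and 36.6 CPM in Cu-Cys and 76.0, 81.1 and 71.8 CPM in Cadict. It rose in Cadict, with no overlap and a log2 fold change of 1.31 ± 0.07 (adjusted p = 5.77e-11 by edgeR). With limma on log2 TPM the value was -0.01. Of the partner proteins, Psme3ip1 had a log2 fold change of 0.78 and Psmc3ip, with -0.48, was the lowest of the 46 members.

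In Cu-Cys the same classes moved by small amounts. Of the 46 members, 35 rose, 2 fell and 9 passed in neither direction (edgeR quasi-likelihood test), where 22.6% of all genes were higher and 22.4% lower. The median log2 fold change was 0.29 for the members, 0.32 for the 31 subunits of the 26S and 0.01 for all genes. Of the 31 subunits, 29 rose, and the other two, Psmb1 and Psmb4, had log2 fold changes of 0.21 each (adjusted p = 0.0557 and 0.052 by edgeR). By the stricter rule 0 members were called in either direction, against 0.167% of all genes higher and 1.47% lower. Psmd7 had the largest rise, from 260.4, 265 and 264 CPM in Ctrl to 381, 368 and 364 CPM, without overlap and with a log2 fold change of 0.49 ± 0.05 (adjusted p = 1.92e-06 by edgeR). Psmd5, the base chaperone, came next, from 66.0, 68.5 and 67.1 CPM to 87.0, 93.6 and 92.4 CPM, a log2 fold change of 0.44 ± 0.05. In Cadict against Cu-Cys the log2 fold change of Psmd5 was 0.27 ± 0.05, the smallest among the base chaperones. The 2 falls were the activators Psme1 (-0.36) and Psme2b (-0.89), and Psme2 had a log2 fold change of -0.26 (adjusted p = 0.0606 by edgeR). With library totals 27 members were higher and 3 lower (all genes 15.4% and 28.9%), with limma on log2 TPM 18 and 3 (all genes 7.51% and 29.4%). Without Cadict replicate 2, which shares its estimate of spread with this comparison, 42 were higher and 3 lower (all genes 28.6% and 26.5%). Both comparisons with Ctrl use the same 3 Ctrl libraries.

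In Cadict against Cu-Cys, 42 members were higher, 3 lower and 1 not called (edgeR quasi-likelihood test), against 40.3% of all genes higher and 45.6% lower. By the stricter rule the numbers were 31 higher and 0 lower, against 18.6% and 23.6% of all genes. All 31 subunits of the 26S were higher, with a median log2 fold change of 1.54, where all genes had -0.10. With library totals 26 of the 31 were higher and 1, Psma1 (-0.17), was lower, against 17.3% and 72% of all genes. The 3 lower members were Psmg1 (-0.24), Psmg2 (-0.44) and Psmc3ip (-0.71), and Psme4 had a value of -0.05 (adjusted p = 0.41 by edgeR). The largest difference was again that of Psmd8, with a log2 fold change of 2.12 ± 0.07 (adjusted p = 1.11e-13 by edgeR).

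**Figure D3:**
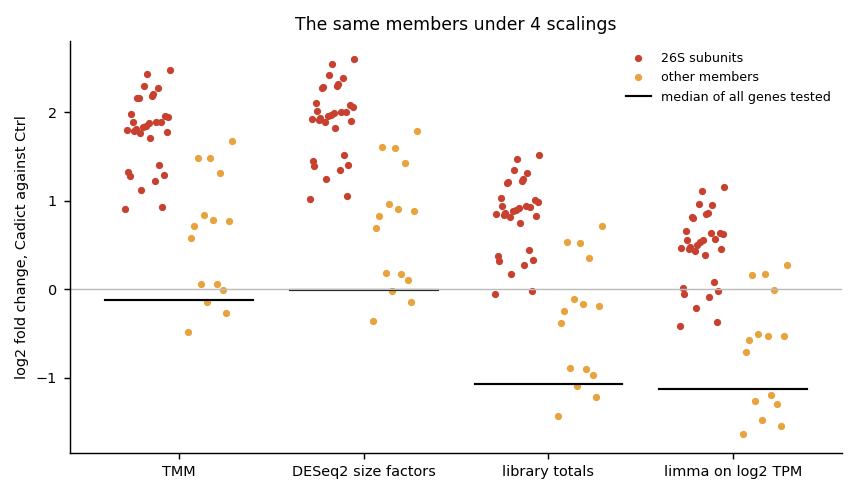
Log2 fold change in Cadict against Ctrl of the 31 subunits of the 26S (red) and the other 15 members (orange) under 4 scalings, with the median of all genes tested as a black line. The median of the 26S subunits moves from 1.85 with TMM to 0.89 with library totals and 0.53 with log2 TPM, and that of all genes from -0.13 to -1.08 and -1.13, so the red points stay well above the line in each column.

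Of all counts, the members took 0.605% ± 0.006 (SD, n = 3) in Ctrl, 0.703% ± 0.005 in Cu-Cys and 0.995% ± 0.044 in Cadict, and the groups did not overlap. TPM, which divides by transcript length and can be compared between genes, gave the make-up of these transcripts. In Ctrl, 22.9% of the summed TPM of the role classes was from alpha, 23.8% from beta, 13.7% from ATPase and 19.5% from lid genes. In Cadict, the shares of beta (26.8% ± 1.0), ATPase (16.8% ± 0.2) and lid genes (22.8% ± 0.7) were higher than in any Ctrl library. Those of alpha genes (21.0% ± 0.4), the other base genes (7.43% ± 0.44 against 9.96% ± 0.13 in Ctrl), activators (3.22% ± 0.15 against 6.22% ± 0.09) and 20S assembly chaperones (0.903% ± 0.104 against 2.22% ± 0.03) were lower. In Cu-Cys the shares of the core and base were near those of Ctrl, and that of the activators was 4.78% ± 0.03. The lid share in Cu-Cys was 20.7% ± 0.2, against 19.5% in Ctrl, without overlap. These shares depend on no scaling between libraries.

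**Figure D4:**
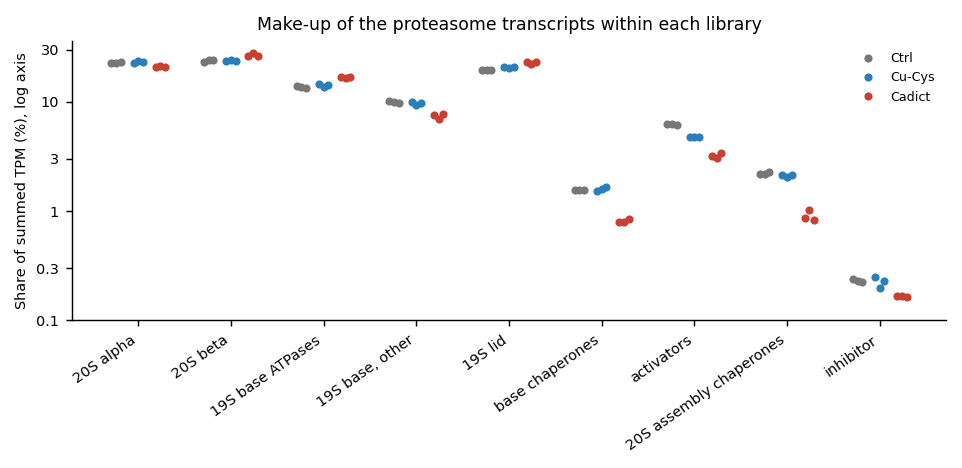
Share of each role class in the summed TPM of the proteasome role classes, in percent on a log axis, with 1 point per library (grey Ctrl, blue Cu-Cys, red Cadict). Activators go from 6.22% in Ctrl to 4.78% in Cu-Cys and 3.22% in Cadict, while ATPases go from 13.7% to 16.8% between Ctrl and Cadict.

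Subunits that stand once in each ring of the particle had unequal transcript levels. Among the 14 genes of the core in Ctrl, TPM ran from 198 ± 3 for Psmb6 to 517 ± 20 for Psma7, with a ratio of highest to lowest of 2.62 ± 0.09 and a coefficient of variation of 30.4% ± 1.3. In Cadict it ran from 174 ± 3 for Psma1 to 803 ± 45 for Psmb3. The ratio was 4.63 ± 0.34 and the coefficient of variation 46.2% ± 1.9, so the core transcripts were less even in Cadict. Other annotated genes share 55.8% of the 50-base stretches of Psmb3, against 0% for Psma1, so some of the Psmb3 reads could be theirs. The 6 ATPases went from a coefficient of variation of 17.7% ± 0.6 to 27.6% ± 1.3, while in Cu-Cys both rings had values near those of Ctrl (31.7% ± 1.5 and 17.6% ± 1.7). Over all 31 subunits Psma7 was first in Ctrl, ahead of Psmd2 (498 ± 6 TPM), whose ranges overlapped, and Psmc4 (147 ± 2) and Psmd3 (150.4 ± 2.6) were last. In Cadict Psmb3 and Psmd8 (782 ± 18) led, again within their spread, Psmd2 was 15th, with 386 ± 50 TPM, and Psmd3 was last, with 148 ± 15. For Psmd2, 26.4% of the stretches also occur in other annotated genes.

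**Figure D5:**
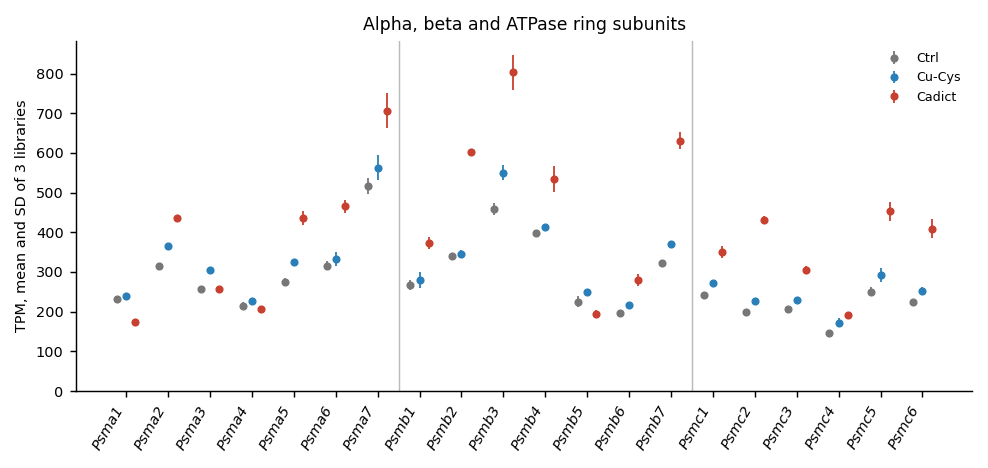
TPM (mean and SD of 3 libraries, linear axis from 0) of the alpha, beta and ATPase ring subunits in Ctrl (grey), Cu-Cys (blue) and Cadict (red). In Ctrl the core genes lie between 198 and 517 TPM, and in Cadict between 174 (Psma1) and 803 (Psmb3).

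The order of the Cadict replicates depended on the scale. Among the 31 subunits of the 26S, Cadict replicate 2 was the highest of its group in 27 and replicate 3 the lowest in 26, on the TMM scale. Replicate 2 had the lowest TMM factor, 0.640, and the same count over all genes was not made. Without TMM, the share of all counts on the members was also highest in replicate 2, at 1.04% against 0.981% and 0.959% in replicates 1 and 3. The summed TPM of the members was instead lowest in replicate 2, at 12707 against 12822 and 12890 in replicates 1 and 3. The median coefficient of variation of a subunit was 8.81% in Cadict, 2.28% in Ctrl and 2.69% in Cu-Cys. All 31 subunits were nevertheless called higher in Cadict both with and without replicate 2. Transcript length showed little relation to the change, with Spearman's rho of -0.14 over the 31 subunits and -0.18 over 11652 genes with a length, across genes that share the same libraries.

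Genes that belong to the proteasome or work with it but lie outside the rule were taken from a list of 17. This list, like the NRF1 genes below, was chosen with earlier results of these data known. Of the 17 genes, 16 were tested. In Cadict against Ctrl 12 rose and 4 fell, against 40.6% of all genes higher and 47.1% lower, and with library totals 11 were higher and 5 lower, against 18.1% and 73.1%. Adrm1, the ubiquitin receptor of the base, was at 70.5, 71.6 and 70.3 CPM in Ctrl, 110.3, 102 and 106 CPM in Cu-Cys and 582, 630.1 and 581 CPM in Cadict, a log2 fold change of 3.08 ± 0.05 in Cadict (adjusted p = 2.81e-16 by edgeR). Pomp, the maturation factor of the core, went from 59.7, 59.5 and 61.0 CPM to 197, 253 and 188 CPM, a log2 fold change of 1.82 ± 0.09. The small lid subunit Sem1 had one of 1.73, and the deubiquitinases Uchl5 and Usp14, which dock on the base, had 1.52 and 1.09. The largest was that of Zfand2a (5.33 ± 0.07), an arsenite-inducible protein that binds the 19S particle, and the lowest that of Fbxo7 (-1.17), a binding partner of Psmf1. All 5 of Adrm1, Pomp, Sem1, Uchl5 and Usp14 were also higher with library totals. In Cu-Cys 11 of the 16 rose and 0 fell, against 22.6% and 22.4% of all genes, with Adrm1 at 0.58 and Zfand2a at 0.97.

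Of 7 genes tied to NRF1 and its relative NRF2 (Nfe2l2), 5 rose and 2 fell in Cadict, against 40.6% of all genes higher and 47.1% lower, while with library totals 3 were higher and 3 lower, against 18.1% and 73.1%. Nfe2l1 itself fell, from 264, 265 and 256 CPM in Ctrl to 204, 191 and 224 CPM in Cadict, a log2 fold change of -0.34 ± 0.06 (adjusted p = 2.8e-05 by edgeR), and it was -0.30 in Cu-Cys. Vcp, the ATPase that pulls NRF1 from the endoplasmic reticulum, went from 609, 621 and 628 CPM to 2183, 2109 and 2268 CPM, a log2 fold change of 1.82 ± 0.05. Ngly1, the glycanase of NRF1, had a log2 fold change of -1.21 ± 0.10. Ddi2, the protease that cuts NRF1, had one of 0.61 ± 0.15, but its groups overlapped (31.0, 33.1 and 36.6 CPM against 53.0, 34.6 and 66.0 CPM, the lowest in replicate 2). Transcript levels do not show how much NRF1 is processed, which was not measured here.

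The immunoproteasome genes, which replace the catalytic subunits under interferon, were below Ctrl in both treatments for Psmb8 and Psmb9. Psmb8 was at 24.0, 24.9 and 23.2 CPM in Ctrl, 14.4, 12.8 and 13.3 CPM in Cu-Cys and 16.4, 19.3 and 15.6 CPM in Cadict, with log2 fold changes of -0.83 and -0.49, and Psmb9 had -1.66 and -0.56. Psmb10 fell in Cu-Cys (-0.33) and had -0.17 in Cadict (adjusted p = 0.175 by edgeR). Their summed TPM with Psmb10 was 12.6% ± 0.4 of all catalytic transcripts in Ctrl, 6.64% ± 0.27 in Cu-Cys and 2.91% ± 0.16 in Cadict, without overlap between the groups. This share also falls when Psmb6 and Psmb7 rise. In Cadict against Cu-Cys, Psmb8, Psmb9 and Psmb10 had log2 fold changes of 0.34, 1.10 and 0.16. With library totals these were -0.54, 0.22 and -0.72. Psmb9 had only 19 to 78 counts a library.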

How the data were processed

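Poly(A) RNA of 9 MC38 libraries was sequenced. The submitters' processing notes list HISAT2 2.1.0, Bowtie2 2.3.4.3, RSEM 1.3.1 and the builds GRCm39 and GRCh38.p13, without their roles. The labels name a column kit and DNA nanoball sequencing, and the paper's methods TRIzol and an Illumina instrument. The authors deposited, for 16509 genes, an expected count per library, which is not normalized, and TPM, which is scaled to transcript length and library total. Their FPKM, size-factor counts and group averages were not used. Columns headed CC were read as Cu-Cys by the initials. For CCGE the match with Cadict was inferred from what the nanodrug contains. Columns matched to no sample numbered 0.

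Expected counts were rounded and fitted in R 4.3.3 with edgeR 4.0.16 (filterByExpr, TMM, 1 quasi-likelihood model over the 3 groups), with Benjamini-Hochberg adjustment over 11949 genes. The procedure was first tested on simulated data in which a few genes changed, as many raised as lowered. That test cannot show how well the scaling works for Cadict. Standard errors are the log2 fold change divided by the root of the F statistic. Total counts were 17905769 to 18293060 a library, and the limit for an undetected gene (3 counts) was 0.164 to 0.168 CPM, for counting error only. The members and lists were chosen with earlier results of these data known. Named with values are the highest and lowest change of each role class in Cadict against Ctrl among members averaging at least 10 CPM, the 3 catalytic subunits, Psmd4, Psmd14, Psme3, Psme4, Psmf1 the 2 smallest adjusted p in Cu-Cys against Ctrl and, by their changes, classes of 3 or fewer. The within-library ratios, Psmb1, Psmb3, Psmb4, Psma7, Psmc6, Psmd12, Psme1, Psme2, Psmg1, Psmg4 and the partner proteins were chosen after their values were seen.

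Alternatives were DESeq2 1.42.0 size factors and Wald test, library totals, 2 other filters, limma 3.58.1 on log2(TPM + 1), the replicate number as a block, and each library left out in turn. Replicate numbers were not treated as pairs. Promoters came from RefSeq (GRCm38.p6), and 50-base stretches and lengths from GENCODE M21 transcripts on GRCm38, so no coordinate here is on GRCm39. No protein sequences were used here.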

Additional observations from a re-analysis of the deposited data

How the results depend on the processing

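Most of the changes came with limma on log2 TPM, which differs in measure, offset, scaling and test together, and with library totals, which differ in scaling alone. Which of the differences of the limma fit mattered was not tested. Of all genes tested, library totals put 18.1% above and 73.1% below Ctrl in Cadict by adjusted p (6.93% and 51.5% by the stricter rule), and log2 TPM 11.9% and 79.9% (3.26% and 54.2%). For Cadict relative to Cu-Cys these shares were 17.3% and 72.0% (5.76% and 47.7%) with totals, and 11.4% and 77.6% (3.00% and 48.4%) with log2 TPM. With library totals, Cadict against Ctrl gave 9 members lower, 10 higher and 3 lower by the stricter rule and a median of 0.73, and the log2 fold change turned negative for Psma1 (-0.055), Psmd2 (-0.020), Psmd5 (-0.25), Psmd10 (-0.38), Psme4 (-0.90) and Psmg3 (-0.19). In Cadict against Cu-Cys it gave 10 lower, 5 higher and 3 lower by the stricter rule and a median of 0.43, with Psma1 (-0.17), Psmb5 (-0.068), Psmd2 (-0.11), Psmd5 (-0.61), Psmd10 (-0.37), Psme2b (-0.13) and Psmg3 (-0.31) negative. In Cu-Cys against Ctrl Psmd10 was at -0.0074. With limma on log2 TPM, Cadict against Ctrl gave 24 higher, 14 lower, 2 higher and 6 lower by the stricter rule and a median of 0.33, and Psma1 (-0.42), Psmb5 (-0.21), Psmd2 (-0.37), Psmd3 (-0.024), Psmd5 (-0.57), Psmd10 (-0.72), Psme4 (-1.20), Psmf1 (-0.0083) and Psmg3 (-0.53) turned negative. Cadict against Cu-Cys gave 23 higher, 15 lower, 0 higher and 4 lower by the stricter rule and a median of 0.12, with Psma1 (-0.46), Psmb5 (-0.36), Psmd2 (-0.39), Psmd3 (-0.13), Psmd5 (-0.87), Psmd10 (-0.63), Psme2b (-0.45), Psmf1 (-0.11) and Psmg3 (-0.56) negative. Cu-Cys against Ctrl gave 18 higher, with Psmd10 at -0.083 and Psme4 at -0.039. With both DESeq2 settings, 1 member was lower in Cadict against Ctrl. The median of the members in Cu-Cys against Ctrl was 0.28 with the Wald test, 0.32 with DESeq2 size factors, 0.27 with at least 10 counts in every library, 0.30 with no filter, 0.22 with library totals, 0.14 with log2 TPM, and 0.27 to 0.31 with each library left out. Psme4 changed sign in Cadict against Ctrl with at least 10 counts (-0.0078) and no filter (-0.026), and in Cadict against Cu-Cys with the Wald test (0.037) and DESeq2 size factors (0.044). Psme2b did so in Cadict against Ctrl without Cadict replicate 2 (0.14). With each library left out, 583 of 594 values for named members kept their direction and their side of the threshold. The replicate block, with 40 members higher and 2 lower in Cadict against Ctrl, changed no call of a named member, and deviations of same-numbered libraries correlated at -0.19 to 0.16 over 8551 genes. Depth limits Psmb11 and Psmg4 most.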
